A study of Homo sapiens with 4 samples.

Results

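The mitochondrial genome carried 467 of the 278959 peaks listed in a CLIP-seq experiment on SAF-A in HCT116 cells. Members were all peaks whose chromosome is MT. Each was placed by its midpoint in the control region (positions 1 to 576 and from 16024 on), the rRNA part (577 to 3229) or the rest of the circle, and by its strand. Over the 4 libraries 21 peaks lay in the control region, 145 in the rRNA part and 301 in the rest.

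CLIP-seq crosslinks proteins to RNA with ultraviolet light, isolates 1 protein with an antibody and sequences the RNA that stays attached. SAF-A, also called hnRNP U, is an abundant nuclear protein that binds RNA and chromatin, and HCT116 is a human cell line derived from a colorectal carcinoma. There were 2 pull-down libraries, made with a mouse monoclonal antibody to SAF-A, and 2 input libraries. All came from unmodified crosslinked HCT116 cells as far as the labels say, treated with DNase I and a small amount of RNase A. The cleared lysate was divided between pull-down and input, and in both the RNA was recovered from a strip of membrane that starts at SAF-A's own size, so the input is RNA held by all proteins of that size. Pull-down replicates 1 and 2 had 96061 and 111256 listed peaks, against 29386 and 42256 in input replicates 1 and 2. Of these, 51 and 70 were mitochondrial in the pull-downs, against 133 and 213 in the inputs. Whether replicates are separate cultures is not in the labels. The p-values below therefore reflect the spread among these libraries, and that spread may be technical.

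Human mitochondrial DNA is transcribed from both strands into long precursors that cover nearly the whole circle and are cut at the tRNAs. The plus strand of the reference has the sequence of both rRNAs, most tRNAs and all but 1 of the protein mRNAs. Transcription of the minus strand starts at the light-strand promoter in the control region and yields the mRNA of ND6 and a few tRNAs. The remainder of that transcript is antisense to the genes of the other strand, and mitochondrial degradation enzymes normally keep it low. A peak on the strand opposite to the gene at its midpoint is called antisense below. For plus-strand genes this is a minus-strand peak.

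Mitochondrial peaks made up a smaller share of the pull-down lists on both strands. On the plus strand there were 30 and 39 peaks in the pull-downs, against 89 and 147 in the inputs. That is 3.12 and 3.51 per 10000 listed peaks in the pull-downs, against 30.3 and 34.8 per 10000 in the inputs. Every pull-down lay below every input. The means were 3.31 ± 0.27 in pull-downs and 32.5 ± 3.18 in inputs (SD, n = 2 each), 9.82 times higher in the inputs. On the minus strand there were 21 and 31 peaks in the pull-downs, against 44 and 66 in the inputs. Per 10000 listed peaks these were 2.19 and 2.79 in the pull-downs, against 15.0 and 15.6 in the inputs. The groups did not overlap here either, and the input mean was 6.15 times higher. The share of all regions whose groups lack overlap is not given here. Lack of overlap, here and below, is therefore a description only.

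In limma, fitted over 3231 regions of 1 Mb on 1 strand with the mitochondrial genome as 1 region on each strand, both mitochondrial strands were lower in the pull-downs. The log2 ratio of pull-down over input was -3.28 (SE 0.20, adjusted p = 2.56e-07) on the plus strand. It was -2.62 (SE 0.20, adjusted p = 1.92e-06) on the minus strand. Of all regions tested, 13.9% were called lower at an adjusted p of 0.05, and the log2 ratio of the median region was -0.0083. These values are shares of a list, so fewer mitochondrial peaks and more nuclear peaks cannot be told apart in them. The plain numbers of mitochondrial peaks were also lower in each pull-down than in each input, although the pull-down lists were longer. In plain covered bases this held on the plus strand alone (697 and 972 in the pull-downs, against 1551 and 1810 in the inputs). On the minus strand the groups overlapped, with 827 and 929 bases in the pull-downs, against 852 and 1287 in the inputs.

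**Figure D1:**
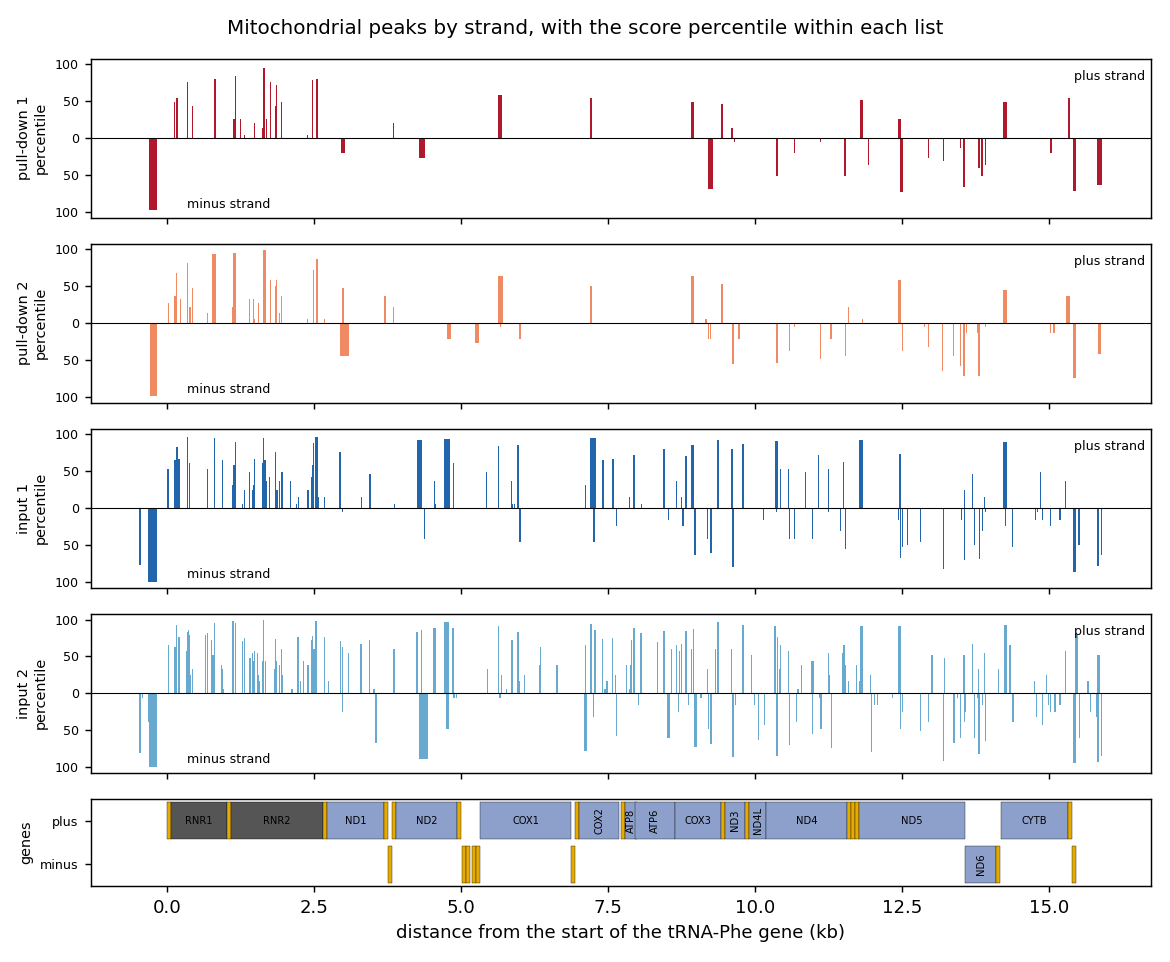
Each bar is 1 mitochondrial peak at its distance from the start of the tRNA-Phe gene (kb, drawn at least 20 bases wide), upward for the plus strand and downward for the minus strand, and its height is the percentile of its score within its own list; pull-downs are above inputs and gene positions are at the bottom. The rRNA genes at the left have peaks upward only, and the pull-downs keep downward peaks mainly over the right-hand part of the circle and at 1 tall site left of tRNA-Phe.

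The control region held the mitochondrial peaks with the highest scores of both inputs. They lay on the minus strand, in the stretch where light-strand transcription begins. The score is a whole number of unstated meaning, so it was ranked only within its own list. The peak ran over positions 278 to 406 in pull-down 1 and 293 to 405 in pull-down 2, against 258 to 407 in input 1 and 266 to 406 in input 2. Its percentile was 97.8 and 98.3 in the pull-downs, against 99.93 and 99.95 in the inputs. It ranked 21st among all peaks of input 1 and 20th in input 2. In the pull-down lists its ranks were 2141 and 1862. It was the top mitochondrial peak of pull-down 1 and, in pull-down 2, came second to a peak in the RNR2 gene.

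A second minus-strand site in the control region, at 16379 to 16477, also had a peak in every list. It was 1 peak at 16381 to 16472 in pull-down 1 and 1 peak at 16409 to 16458 in pull-down 2, against a pair of peaks in each input. Its highest score had percentiles of 63.8 and 41.3 in the pull-downs, against 78.1 and 93.2 in the inputs. These 2 sites accounted for all control-region peaks of the pull-downs. In total the control region had 2 and 2 minus-strand peaks in the pull-downs, against 5 and 9 in the inputs. That is too few for the limma fit, and in the exact permutation test of peaks per 10000 over libraries p was 0.333, the smallest that 2 libraries against 2 can give. On the plus strand, 3 peaks were listed in input 2 and none in the other 3 libraries.

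The rRNA part had peaks on the plus strand alone. It holds RNR1 and RNR2, the genes of the small- and large-subunit rRNAs of the mitochondrial ribosome. There were 20 and 25 plus-strand peaks in the pull-downs, against 43 and 57 in the inputs, and 0 of the 145 peaks lay on the minus strand. A peak list shows only what passed its caller, so this says nothing of minus-strand RNA below that level. RNR1 had 5 and 8 peaks in the pull-downs, against 8 and 22 in the inputs, and RNR2 had 15 and 16 in the pull-downs, against 34 and 34 in the inputs.

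Per 10000 listed peaks, the rRNA part had 2.08 and 2.25 in the pull-downs, against 14.6 and 13.5 in the inputs, with no overlap between the groups. The log2 ratio was -2.68 (SE 0.19, limma adjusted p = 1.25e-06), and the input mean was 6.50 times higher. In this fit, with the mitochondrial genome divided by class, 3 of the 3 mitochondrial classes that reached a mean of 10 peaks were called lower, where 14.0% of all 3232 regions were. Counted as covered bases the change in the rRNA part missed the threshold (log2 ratio -1.46, adjusted p = 0.0634). The peaks there covered 240 and 379 bases in the pull-downs, against 325 and 363 bases in the inputs, and these ranges overlap.

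The same places in the rRNAs recurred across libraries. After overlapping peaks on 1 strand were merged, the rRNA part had 57 sites, of which 11 had a peak in all 4 lists. The RNR2 site at 2208 to 2266 was among them, with its strongest peak beginning at position 2208 in every list. That peak scored at the 95.5 and 98.6 percentile in the pull-downs, against 95.2 and 98.9 in the inputs, so the groups overlapped. The RNR2 site at 3103 to 3141 scored at the 79.7 and 86.4 percentile in the pull-downs, against 96.3 and 97.7 in the inputs. In RNR1, the site at 920 to 942 scored at the 75.7 and 81.1 percentile in the pull-downs, against 96.1 and 86.2 in the inputs. At both of these sites the pull-downs were below the inputs. The RNR2 site at 2425 to 2436, also in all 4 lists, went the other way. Its percentile was 71.7 and 58.1 in the pull-downs, against 24.2 and 43.6 in the inputs. At 3045 to 3078 in RNR2 the groups overlapped (78.9 and 71.8 in the pull-downs, against 88.5 and 78.0 in the inputs).

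**Figure D2:**
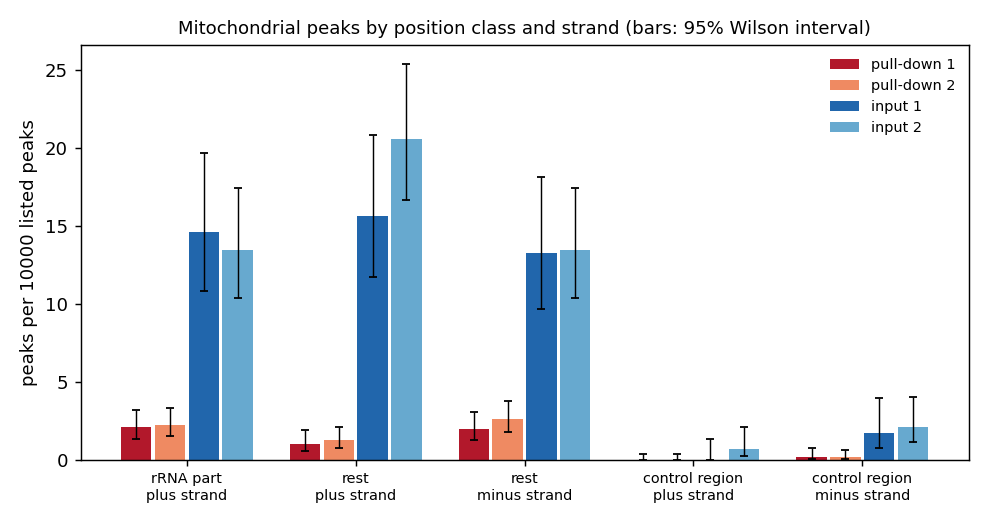
Bars give mitochondrial peaks per 10000 listed peaks for each position class and strand in pull-down 1, pull-down 2, input 1 and input 2, with 95% Wilson intervals that cover counting error only. The inputs exceed the pull-downs in the rRNA part and on both strands of the rest, with the widest gap on the plus strand of the rest (1.04 and 1.26 in the pull-downs, against 15.7 and 20.6 in the inputs).

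Outside the rRNA part and the control region, the gap between pull-downs and inputs was wider on the plus strand than on the minus strand. The plus strand of the rest had 10 and 14 peaks in the pull-downs, against 46 and 87 in the inputs. Per 10000 listed peaks these were 1.04 and 1.26 in the pull-downs, against 15.7 and 20.6 in the inputs, a mean 15.8 times higher in the inputs (log2 ratio -3.92, SE 0.21, limma adjusted p = 7.26e-08). The minus strand of the rest had 19 and 29 peaks in the pull-downs, against 39 and 57 in the inputs. Per 10000 these were 1.98 and 2.61 in the pull-downs, against 13.3 and 13.5 in the inputs, a mean 5.84 times higher in the inputs (log2 ratio -2.54, SE 0.21, limma adjusted p = 1.91e-06). Neither strand had overlapping groups in peaks per 10000. In plain covered bases the minus strand did, with 606 and 766 in the pull-downs, against 614 and 1031 in the inputs. The plus strand did not, with 457 and 593 in the pull-downs, against 1226 and 1336 in the inputs. The difference between the strands was tested through the minus-strand share.

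The minus strand held most peaks of the rest in the pull-downs and fewer than the plus strand in the inputs. Its share was 65.5% (95% Wilson interval 47.3 to 80.1) in pull-down 1 and 67.4% (52.5 to 79.5) in pull-down 2. In the inputs it was 45.9% (35.7 to 56.4) and 39.6% (32.0 to 47.7). The difference of the means was 23.7 percentage points, with an exact permutation p of 0.333, the smallest possible. So the groups did not overlap, but the design cannot reach 0.05. The share was also counted in other ways. With ND6 and the minus-strand tRNA genes left out, the share was 60.0% and 62.2% in the pull-downs, against 43.6% and 38.1% in the inputs. Counted as covered bases it was 57.0% and 56.4% in the pull-downs, against 33.4% and 43.6% in the inputs. In both of these counts the groups did not overlap. Among peaks at least 50 bases wide the groups overlapped (exact permutation p = 1). Such peaks of the rest numbered 3 and 3 on the minus strand and 3 and 5 on the plus strand in the pull-downs, against 0 and 3 on the minus strand and 6 and 2 on the plus strand in the inputs. Over all mitochondrial peaks the minus-strand share was 41.2% and 44.3% in the pull-downs, against 33.1% and 31.0% in the inputs (exact permutation p = 0.333). That last difference turned to -7.59 points in lists reduced to equal length by score.

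**Figure D3:**
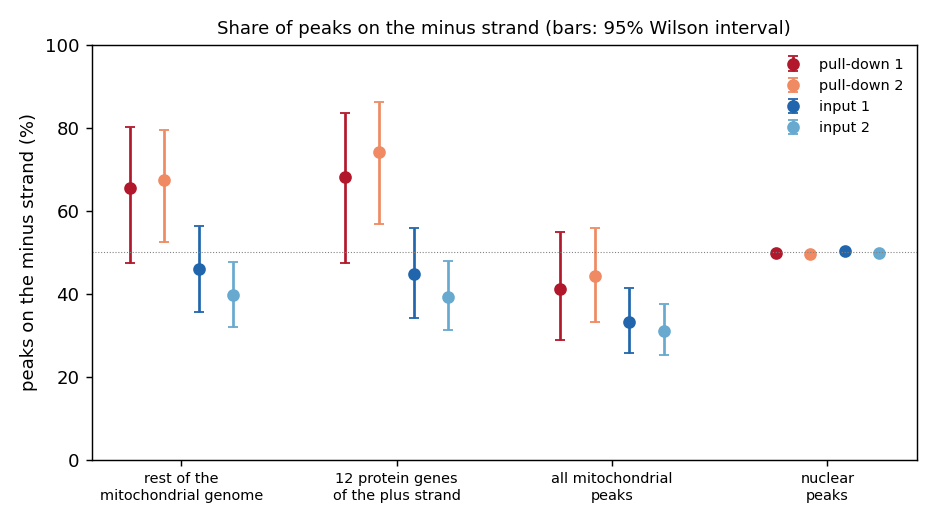
Points give the percent of peaks on the minus strand in each library for the rest of the mitochondrial genome, for the 12 protein genes of the plus strand, for all mitochondrial peaks and for nuclear peaks, with 95% Wilson intervals for the mitochondrial values; the dotted line marks 50%. In the rest both pull-downs (65.5% and 67.4%) lie above both inputs (45.9% and 39.6%).

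The protein genes of the plus strand encode subunits of respiratory complex I (ND genes), cytochrome b of complex III (CYTB), cytochrome c oxidase (COX genes) and ATP synthase (ATP genes). In these 12 genes the pull-downs had 7 and 8 sense peaks and 15 and 23 antisense peaks. The inputs had 42 and 79 sense peaks and 34 and 51 antisense peaks. The antisense share was 68.2% and 74.2% in the pull-downs, against 44.7% and 39.2% in the inputs, a difference of 29.2 percentage points (exact permutation p = 0.333, the smallest possible). Both pull-downs lay above both inputs. Over all gene-assigned peaks, the rRNA genes included, the antisense share was 30.6% (15 of 49) and 33.8% (23 of 68) in the pull-downs, against 28.1% (36 of 128) and 27.4% (55 of 201) in the inputs. Its difference between the groups turned to -19.9 points in lists of equal length.

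Complex I genes held most of the antisense peaks by number, which was not set against the length of the genes. The 6 complex I genes of the plus strand had 3 and 3 sense peaks in the pull-downs, against 20 and 36 in the inputs. They had 13 and 17 antisense peaks in the pull-downs, against 19 and 32 in the inputs. The antisense share was thus 81.3% (57.0 to 93.4) and 85.0% (64.0 to 94.8) in the pull-downs, against 48.7% (33.9 to 63.8) and 47.1% (35.7 to 58.8) in the inputs, with no overlap between the groups. Gene groups are described here by their counts, with no test.

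ND4, a membrane subunit of complex I, had no sense peak in either pull-down, against 7 and 14 in the inputs. Its antisense peaks numbered 4 and 6 in the pull-downs, against 7 and 7 in the inputs. ND5, another membrane subunit of complex I, had 2 and 2 sense peaks in the pull-downs, against 3 and 7 in the inputs. On its antisense side there were 6 and 7 peaks in the pull-downs, against 8 and 14 in the inputs, the most of any gene. In both genes the pull-downs listed more antisense than sense peaks. In ND5 both inputs did so too, while in ND4 neither input did.

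ND1, ND2 and ND3, also membrane subunits of complex I, had few peaks. ND2 had 0 and 0 sense peaks in the pull-downs, against 5 and 5 in the inputs, and 1 and 1 antisense peaks in the pull-downs, against 1 and 4 in the inputs. ND1 had 0 and 1 sense peaks in the pull-downs, against 3 and 7 in the inputs, and 1 and 1 antisense peaks in the pull-downs, against 1 and 2 in the inputs. ND3 had 1 and 0 sense peaks in the pull-downs, against 2 and 2 in the inputs, and 1 and 2 antisense peaks in the pull-downs, against 1 and 2 in the inputs. In all 3 genes the sense counts of the pull-downs lay below those of the inputs, while the antisense counts met or overlapped.

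The cytochrome c oxidase genes had more sense than antisense peaks in every library except pull-down 2, where the numbers were equal. COX1, the catalytic subunit, had 1 and 1 sense peaks in the pull-downs, against 6 and 11 in the inputs, with 0 and 2 antisense peaks in the pull-downs, against 1 and 1 in the inputs. COX2 had 1 and 1 sense peaks in the pull-downs, against 4 and 8 in the inputs, and its antisense peaks numbered 0 and 0 in the pull-downs, against 2 and 3 in the inputs. COX3 had 1 and 2 sense peaks in the pull-downs, against 5 and 9 in the inputs, and 1 and 2 antisense peaks in the pull-downs, against 4 and 6 in the inputs. In each of these genes the pull-downs had fewer sense peaks than the inputs. The antisense share of the 3 genes was 25.0% and 50.0% in the pull-downs, against 31.8% and 26.3% in the inputs, so the groups overlapped.

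CYTB, the gene of cytochrome b, had 1 and 1 sense peaks in the pull-downs, against 3 and 6 in the inputs, and 1 and 2 antisense peaks in the pull-downs, against 7 and 7 in the inputs. The ATP synthase genes had no peak on either strand in the pull-downs, against 4 and 9 sense and 1 and 2 antisense peaks in the inputs. ND6 is the complex I gene that lies on the minus strand. It had 3 and 4 sense peaks in the pull-downs, against 4 and 5 in the inputs, the nearest to equal numbers among the protein genes with a sense peak in every library. Peaks opposite ND6, on the plus strand, numbered 0 and 0 in the pull-downs, against 2 and 3 in the inputs.

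**Figure D4:**
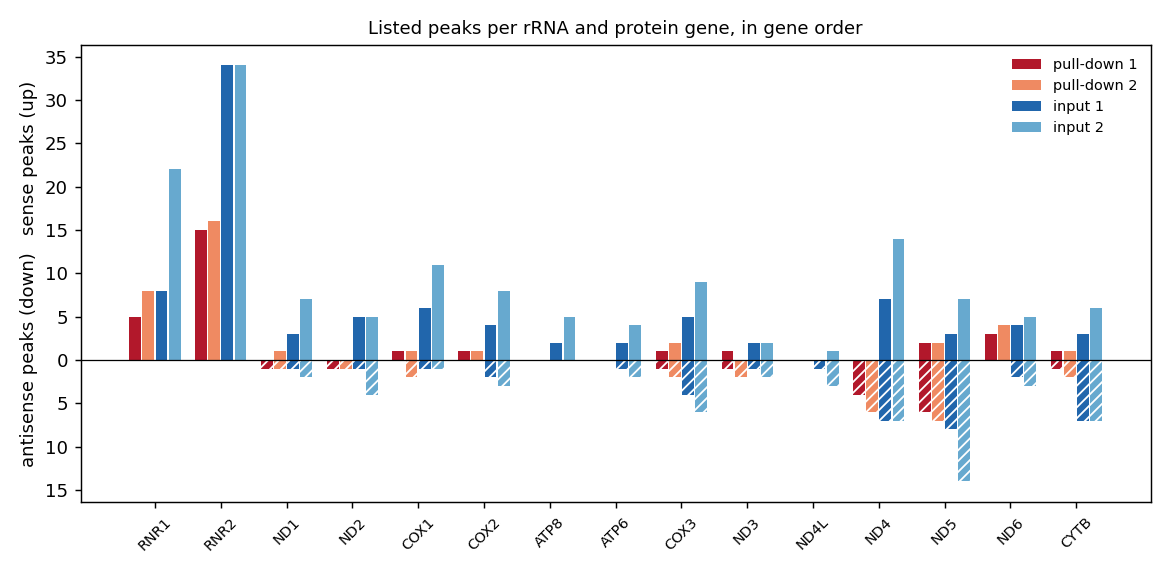
Bars give the number of listed peaks per rRNA and protein gene in gene order, sense upward and antisense (hatched) downward, for pull-down 1, pull-down 2, input 1 and input 2. RNR1 and RNR2 have no antisense bar, and ND4 has antisense bars (4 and 6) and no sense bar in the pull-downs.

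The tRNA genes, whose transcripts punctuate the precursors, had 4 and 9 sense peaks in the pull-downs, against 4 and 6 in the inputs, so the ranges overlapped. They made up 4 of 49 and 9 of 68 gene-assigned peaks in the pull-downs, against 4 of 128 and, with 1 antisense peak, 7 of 201 in the inputs. TRNP, the tRNA gene next to the control region on the minus strand, had a peak in every list that ended at position 16021. It began at 15985 and 15982 in the pull-downs, against 15986 and 15986 in the inputs. Its percentile was 71.7 and 73.9 in the pull-downs, against 86.6 and 94.4 in the inputs.

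Minus-strand peaks of the rest were unevenly placed along the genome. From the start of COX3 to the control region there were 17 and 24 in the pull-downs, against 33 and 45 in the inputs. Before COX3 there were 2 and 5 in the pull-downs, against 6 and 12 in the inputs. From COX3 on, the density was 2.49 and 3.52 peaks per kb in the pull-downs, against 4.84 and 6.60 in the inputs. Before COX3 it was 0.335 and 0.837 in the pull-downs, against 1.0 and 2.01 in the inputs. All 4 libraries thus had a higher density in the stretch nearer the light-strand promoter along that transcript. Plus-strand density from COX3 on was 1.03 and 1.17 per kb in the pull-downs, against 3.23 and 6.60 in the inputs, and before COX3 it was 0.502 and 1.0 in the pull-downs, against 4.02 and 7.03 in the inputs. The boundary was chosen after the positions were seen, so this is a description with no test.

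Most mitochondrial peaks of the pull-downs lay at places that were also listed in an input. In pull-down 1, 88.2% (45 of 51) overlapped an input peak on the same strand by at least 1 base, and in pull-down 2, 87.1% (61 of 70). Of the input peaks, 44.4% (59 of 133) and 34.7% (74 of 213) overlapped a pull-down peak. The lists differ in length, so each share is of its own list. Against 1 input list at a time, 64.3% to 82.4% of mitochondrial pull-down peaks overlapped, against 17.9% to 27.5% of nuclear ones. Against 1 pull-down list at a time, 24.4% to 37.6% of mitochondrial input peaks overlapped, against 62.9% to 68.0% of nuclear ones. Among input peaks of the rest, 48.7% and 45.6% on the minus strand and 21.7% and 16.1% on the plus strand overlapped a pull-down peak. In the rRNA part 62.8% and 54.4% did.

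Merged over the 4 lists there were 224 mitochondrial sites on 1 strand each. Of these, 32 had a peak in all 4 libraries, 54 in both inputs and no pull-down, and 2 in both pull-downs and no input. The sites in both inputs alone were 30 of 87 on the plus strand of the rest, 12 of 70 on its minus strand, 10 of 57 in the rRNA part and 2 of 7 on the minus strand of the control region. The sites in all 4 lists were 8 of 87 on the plus strand of the rest, 11 of 70 on its minus strand, 11 of 57 in the rRNA part and 2 of 7 on the minus strand of the control region. Of the remainder, 96 sites were listed in a single input and in no pull-down.

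The 2 sites seen in both pull-downs alone were on the plus strand. The first, at 2330 to 2344 in RNR2, had scores of 37 and 22 in the pull-downs, at the 76.6 and 58.1 percentile. The second, at 9993 to 10029 in the tRNA gene TRNG, had scores of 18 and 20, at the 46.5 and 53.5 percentile. No site on the minus strand was seen in both pull-downs alone.

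Minus-strand sites of the rest that recurred in all 4 lists numbered 11 of 70. At 10183 to 10215, opposite ND3, the percentile was 4.82 and 55.9 in the pull-downs, against 79.9 and 86.2 in the inputs. At 14113 to 14140, opposite ND5, it was 66.7 and 71.8 in the pull-downs, against 70.2 and 38.4 in the inputs. At 10927 to 10960, opposite ND4, it was 52.0 and 53.5 in the pull-downs, against 5.42 and 84.6 in the inputs. The inputs were above the pull-downs at the site opposite ND3 and overlapped them at the other two. On the sense strand, the COX2 site at 7769 to 7879 had percentiles of 54.4 and 50.9 in the pull-downs, against 95.2 and 93.5 in the inputs. The COX3 site at 9487 to 9544 had percentiles of 49.4 and 63.7 in the pull-downs, against 86.2 and 87.4 in the inputs. At both sense sites the groups did not overlap.

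Peaks with exactly the same start, end and strand were rarer. Of 441 distinct mitochondrial intervals, 25 appeared in at least 2 lists, 14 of them in the rRNA part, 5 on the plus strand of the rest and 6 on its minus strand. The list pairs held 13 in both inputs alone, 3 in both pull-downs alone and 8 in 1 pull-down and 1 input. The interval at 2414 to 2420 in RNR2 was the only one in 3 lists, at the 43.4 and 50.9 percentile in the pull-downs, against 76.3 in input 1 and no identical peak in input 2. Between replicates, 7.84% and 5.71% of pull-down peaks, against 9.77% and 6.10% of input peaks, recurred with identical positions. For nuclear peaks the shares were 4.43% and 3.83% in the pull-downs, against 7.42% and 5.16% in the inputs.

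The mitochondrial share of identical positions was higher than the nuclear one in 4 of 4 libraries, by 2.15 percentage points on average (exact sign-flip permutation p = 0.125, the smallest that 4 libraries allow). The same 4 intervals gave both pull-down shares, and the same 13 gave both input shares. The 4 differences are thus not independent, and this p overstates the evidence. When peaks with a score under 20 were left out, the mean difference turned to -3.78 points, and in lists of equal length to -2.02 points. For peaks that overlapped a peak of the other replicate, the mitochondrial shares were 86.3% and 61.4% in the pull-downs, against 81.2% and 53.1% in the inputs. The nuclear shares were 65.6% and 56.7% in the pull-downs, against 77.7% and 54.1% in the inputs, so 3 of 4 libraries were higher for mitochondrial peaks (exact sign-flip permutation p = 0.25).

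Mitochondrial peaks were wider in the pull-downs. The median width was 22 and 18 bases in the pull-downs, against 12 and 8 bases in the inputs. On the minus strand it was 25 and 21 bases in the pull-downs, against 14 and 10.5 in the inputs, and on the plus strand 16.5 and 14 in the pull-downs, against 9 and 8 in the inputs. Peaks at least 50 bases wide made up 15.7% (8 peaks) and 18.6% (13 peaks) in the pull-downs, against 5.26% (7 peaks) and 2.82% (6 peaks) in the inputs. The groups did not overlap in any of these measures, and each had the smallest possible exact permutation p of 0.333.

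The rRNA peaks were narrow, with median widths of 8 and 7 bases in the pull-downs, against 5 and 4 in the inputs. Peaks of at most 5 bases made up 20.0% and 16.0% of them in the pull-downs, against 58.1% and 66.7% in the inputs. Among nuclear peaks such narrow peaks made up 1.07% and 0.896% in the pull-downs, against 2.19% and 1.83% in the inputs. The share of such short peaks was thus higher in the rRNA part than in the nuclear genome in all 4 libraries. On the plus strand of the rest the median was 45.5 and 36.5 bases in the pull-downs, against 17.5 and 11 in the inputs. On its minus strand it was 25 and 19 in the pull-downs, against 12 and 11 in the inputs. Within each library the rRNA part thus had a lower median than either strand of the rest.

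**Figure D5:**
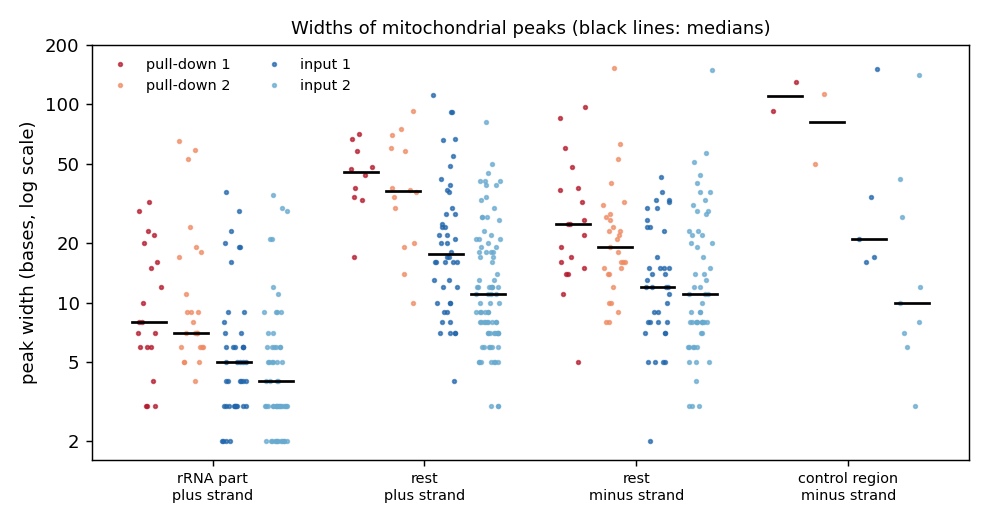
Each point is the width in bases (log scale) of 1 mitochondrial peak, by position class and strand, in pull-down 1, pull-down 2, input 1 and input 2; black lines are medians. Plus-strand medians in the rest are 45.5 and 36.5 in the pull-downs, against 17.5 and 11 in the inputs.

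Scores placed mitochondrial peaks as a whole near the middle of the list in 3 libraries and lower in pull-down 2. The median percentile was 49.4 and 37.3 in the pull-downs, against 49.7 and 51.8 in the inputs. It equalled the nuclear median in 3 libraries and differed from it by -13.6 percentage points in pull-down 2. On the minus strand of the rest the median percentile was 36.1 and 27.5 in the pull-downs, against 41.8 and 38.4 in the inputs. On its plus strand it was 49.4 and 41.0 in the pull-downs, against 53.0 and 60.6 in the inputs. Each list was also reduced to its 29386 best-scored peaks. This is the length of input 1, which kept all its peaks, while the pull-downs lost most of theirs. The rest then kept 0 and 0 plus-strand peaks in the pull-downs, against 46 and 64 in the inputs. Its minus strand then had 2 and 0 in the pull-downs, against 39 and 32 in the inputs. All but 2 of the pull-down peaks of the rest thus fell outside the reduced lists. The tall minus-strand peak of the control region was kept in all 4. Peaks of equal score at the cut were ordered by chromosome name and position, so not every peak left out scored lower. The pull-down 1 peak opposite COX3 (score 30) and the pull-down 2 TRNP peak (score 33) had the score at the cut and were left out.

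Few minus-strand peaks lay opposite a plus-strand peak. In the pull-downs 1 of 21 and 2 of 31 minus-strand peaks overlapped a plus-strand peak of the same library, against 8 of 44 and 12 of 66 in the inputs. Plus-strand peaks also covered fewer bases in the pull-downs (697 and 972, against 1551 and 1810 in the inputs). The part of that coverage in the difference was not tested. The minus-strand share of mitochondrial peaks was below that of nuclear peaks in 4 of 4 libraries. The differences were -8.61 and -5.17 percentage points in the pull-downs, against -17.3 and -18.9 in the inputs (exact sign-flip permutation p = 0.125, the smallest possible). Nuclear peaks were near 50% minus in every library (49.8% and 49.5% in the pull-downs, against 50.4% and 49.9% in the inputs). The rRNA part, with 0 of its 145 peaks on the minus strand, is included in the mitochondrial share. In the rest alone, the minus-strand share was 65.5% and 67.4% in the pull-downs, above that of nuclear peaks. It was 45.9% and 39.6% in the inputs, below that of nuclear peaks. Wide peaks made up about the same share among mitochondrial as among nuclear peaks in the pull-downs (differences of -0.552 and -0.676 points) and a smaller one in the inputs (-16.9 and -23.9 points). The mean of these differences turned to 4.66 points in lists of equal length and to 3.17 points for scores of at least 20.

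The nuclear genome holds copies of mitochondrial DNA, 1 of them a long one near the start of chromosome 1. In the window from 560001 to 570000 of chromosome 1, in the coordinates of the files, there were 0 and 3 peaks in the pull-downs, against 2 and 5 in the inputs. The window was set from general knowledge of where this copy lies in the build before GRCh38. How reads that match both places were handled is not given in the sources used here, and its part in the mitochondrial counts was not tested.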

How the data were processed

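The authors deposited 1 peak list per library, with a chromosome, start, end, score and strand per peak, so peaks were called per sample. STAR, featureCounts and the build GRCh38 are named, without versions, in the submitters' processing notes. Which program called the peaks, and at what threshold, is not given in the sources used here. Each peak's deposited score is at least 10, whole, and of unstated meaning. Read depth is unknown, and a longer list may come from deeper sequencing.

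Across the 4 lists, 1214 nuclear peaks end beyond their chromosome's length in GRCh38 (lengths from general knowledge), so positions are given as in the files, 1-based. Recent builds were assumed to share 1 mitochondrial reference sequence. Moving each mitochondrial peak by 2 bases changed the class of 0 peaks. Genes were assigned by midpoint from a RefSeq table of 37 mitochondrial genes; it gives no strand, which was taken from general knowledge (9 genes on the minus strand).

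Peaks were counted per 1 Mb region and strand, and log2 of peaks per 10000 listed peaks (0.5 added to each count) was fitted with limma 3.58.1 in R 4.3.3 (lmFit, eBayes with trend) over regions averaging at least 10 peaks, with Benjamini-Hochberg adjustment. The fit was tested on simulated data. Single values had two-sided exact permutation tests over libraries (smallest p 0.333 for 2 against 2, 0.125 for 4 sign flips). Wilson intervals (95%) cover counting error alone, and peaks side by side are not independent. Named genes were both rRNA genes, the 6 protein genes with the most peaks, genes with antisense peaks in both libraries of a group (up to 8) and ND6; named intervals were those identical in at least 3 lists. The other sites described were chosen after their values were seen. Members, lists and tests were chosen with earlier results of these data known.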

Additional observations from a re-analysis of the deposited data

How the results depend on the processing

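The lower log2 ratio of mitochondrial peaks in the pull-downs kept its direction on both strands and in the 3 classes tested under every alternative run (other added counts, other minimums, centring, peaks under 50 bases, peaks merged within 10 bases, class by the 5' end, scores of at least 20, lists of equal length, leaving out each library). With covered bases, an alternative added after seeing the data, the ratio in the rRNA part was -1.46 (adjusted p = 0.0634), while the median of all regions moved to 0.48. Lists of equal length and scores of at least 20 moved that median to -0.42 and -0.43, and equal lists left so few pull-down peaks in the rest that its ratios depend on the added 0.5. With peaks of at least 50 bases no mitochondrial region reached the minimum, and the fit was not run there. Same-numbered libraries deviated together only weakly (correlation 0.0899 over 3231 regions). With the replicate number as a block the log2 ratios stayed at -3.28 (plus strand), -2.62 (minus strand), -2.68 (rRNA part), -3.92 (rest, plus) and -2.54 (rest, minus), with 339 regions called higher and 569 lower, against 255 and 449 without the block.

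With lists of equal length, in which the pull-downs keep few mitochondrial peaks, the differences of pull-down minus input turned round for the minus-strand share of all mitochondrial peaks (-7.59 points), the antisense share of gene-assigned peaks (-19.9 points), the control-region share (8.26 points; 4.72 points for peaks of at least 50 bases) and the median score percentile (4.79). The minus-strand share in the rest had no value there, because 1 pull-down kept no peak in the rest; in the other alternatives its difference ranged over 13.8 to 35.2 points, the lowest with peaks of at least 50 bases, where the groups overlapped. For mitochondrial minus nuclear, the wide share turned to 4.66 with equal lists and 3.17 at scores of at least 20, and identical positions to -2.02 and -3.78. The median percentile turned to 2.27 with equal lists, and without single libraries it ranged from -4.52 to 0 (0 without pull-down replicate 2). Shares of peaks found in the other kind of library moved with the overlap required: at least 50% of both peaks gave a mean of 52.5% for pull-down peaks and 20.3% for input peaks. The cause of these turns was not tested. Lists of equal length had the length of input 1, which kept all its peaks. Equal scores at the cut were ordered there by chromosome name and position.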
